A study of Mus musculus with 2 samples.

Results

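Dppa2, Dppa4 and Morc1 are neighbouring genes in a replication domain of mouse chromosome 16, and their nuclear RNA was measured here separately for each allele. They were taken by name from the deposited table, as 3 of its 48550 rows, and are described against the 25 other rows whose start lies within 2 Mb of one of theirs. The cells were F121-6, a female hybrid embryonic stem (ES) cell line with 1 chromosome set of the 129 strain and 1 from *Mus musculus castaneus* (cas), grown with LIF and serum on mitomycin-C-inactivated mouse embryonic fibroblasts. The labels give 1 group of 2 libraries of total nuclear RNA and name no treatment and no second genotype, so the comparison lies within each library, the 129 allele against the cas allele. Nuclear RNA holds introns and unstable transcripts beside mature messages. Separate cultures are not stated, so p-values measure only the spread between these 2 libraries, which may be technical. That spread is shared across genes of like abundance, so a gene's own spread weighs little in its p-value. The labels do not name the mother's strain.

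Mammalian chromosomes are copied in large domains that each replicate at a set time of S phase, and early replication usually goes with open chromatin and transcription. The Dppa2, Dppa4 and Morc1 domain is known for replicating early in ES cells and late after they differentiate, when these genes fall silent. Dppa2 and Dppa4 are related SAP-domain chromatin proteins that bind each other, and in mouse ES cells they activate genes of the 2-cell embryo such as Dux and Zscan4. Morc1 is an ATPase of the microrchidia family, known in mice for silencing transposons in the male germ line. The series' title names allelic control of replication timing; only its RNA is analysed here.

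All 3 genes lie on the plus strand, within 347.2 kb. On the mm10 build, GENCODE M21 places Dppa4 (ENSMUSG00000058550.15) at chr16:48283733-48294237, Dppa2 (ENSMUSG00000072419.5) at chr16:48303908-48319723 and Morc1 (ENSMUSG00000022652.7) at chr16:48431237-48630900. The rows of these 3 genes carry 5000 bp windows with an annotated start at the middle, and for Dppa2 that start belongs to the shorter annotated transcript, of 9247 bp. No other GENCODE gene overlaps the span of any of the 3. RefSeq, on the same build, places 1 noncoding gene, Gm41458 (48600118 to 48613840), inside Morc1.

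The alleles together had 28523744 reads in library 1, of which 129 gave 53.64%, and 31402765 in library 2, of which 129 gave 54.16%. Reads were recovered from the deposited values times length. Ratios are log2(129/cas) of CPM (reads divided by the scaled library size) plus 0.1, after trimmed-mean (TMM) scaling, so that the typical gene is near 0, which corresponds to a 129 share of 55.28% in library 1 and 56.01% in library 2. A positive ratio is higher from 129. Of 15509 tested genes, 6771 (43.7%) were called between the alleles by limma at a Benjamini-Hochberg adjusted p under 0.05, 3388 higher from 129 (21.8%) and 3383 higher from cas (21.8%). That even split, 50.0% higher from 129, depends on the scaling: it was 81.3% with 1 shared library size, which moved the median of all genes by 0.32, and 61.9% with column totals. Of 10 marker genes of pluripotent cells, 9 were tested (1 higher from 129, 4 higher from cas and 4 not called, median -0.08); with 1 shared library size 4 were higher from 129 and 0 from cas. Sox2, a gene that ES cells use too, was listed at 0 in all 4 columns, so a 0 in this table cannot be read as absence. The 16 fibroblast markers held 0.187% and 0.184% of the libraries' reads. Of the 11 tested, 9 were higher from 129 and 2 not called, with a median ratio of 2.81. The summed reads of all 16 were 33730 from 129 and 19592 from cas in library 1, and 38415 and 19405 in library 2. Most of these were from Fn1, with 24172 and 18033 in library 1, and 25769 and 17654 in library 2. The sums and the share of the libraries' reads thus mostly describe Fn1, whose ratio was 0.16, far below the median of the tested markers. Lum, S100a4 and Twist1 were listed at 0. The part of feeder RNA in the results below was not tested.

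All 3 domain genes were transcribed from both alleles. Dppa4 gave fewer reads from 129 than from cas in both libraries, relative to the typical gene by 1.505-fold. Dppa2 and Morc1 gave somewhat more reads from 129 than from cas in both libraries, close to the split of the typical gene. Of the 3 genes, 2 were called, against 43.7% of all tested genes. Both of these, Dppa4 and Morc1, had ratios toward cas relative to the typical gene, although Morc1 had more reads from 129. The call on Morc1 depends on the scaling, the pairing of alleles by library and the read filter.

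Dppa4 had 515 reads from 129 and 669 from cas in library 1. In library 2 it had 688 from 129 and 764 from cas. The 129 count was the lower one in both libraries. The 129 share was 43.5% (exact Clopper-Pearson 95% interval 40.65 to 46.38) in library 1 and 47.38% (44.79 to 49.99) in library 2, a mean of 45.44% ± 2.75 (SD, n = 2). Both intervals lie below 50% and below the share of all reads in their library. These intervals, like the others below, cover counting error only. The log2 ratio was -0.59 (SE 0.12, adjusted p = 1.82e-05 in limma), from -0.68 in library 1 and -0.50 in library 2. Over all tested genes 63.1% had a smaller ratio in size, so this difference is of a common size in these cells. With 1 shared library size the ratio was -0.26 and was not called (adjusted p = 0.0582 in limma). Relative to the median of all genes in that setting it was again -0.59. That value cannot test the call, since the scaling shifts all genes nearly alike.

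Dppa2 had 453 reads from 129 and 420 from cas in library 1. In library 2 it had 755 from 129 and 591 from cas. The 129 count was the higher one in both libraries, by a small margin in library 1. The 129 share was 51.89% (48.52 to 55.25) and 56.09% (53.39 to 58.76), with overlapping intervals and a mean of 53.99% ± 2.97 (SD, n = 2). The log2 ratio was -0.10 (SE 0.13, adjusted p = 0.585 in limma), which was not called. Its 95% interval of -0.35 to 0.16 ends short of the Dppa4 ratio, and its own ratio was -0.20 in library 1 and 0.0048 in library 2.

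Morc1, the longest of the 3, carried most of the domain's reads, between 91.7% and 93.6% of the 3 genes' sum in each column. It had 14110 reads from 129 and 12078 from cas in library 1. In library 2 it had 17591 from 129 and 14896 from cas. The 129 count was higher in both libraries and the shares nearly coincided, with 53.88% (53.27 to 54.48) and 54.15% (53.6 to 54.69), a mean of 54.01% ± 0.19 (SD, n = 2). These shares lie within 1 percentage point of the 129 share of all reads. The log2 ratio of -0.09 (SE 0.04, adjusted p = 0.026 in limma) passed the threshold, a 1.068-fold difference in a gene of many reads (99.6% of tested genes had fewer). Its direction rests on the scaling, with 0.0063 and no call under column totals and 0.23, called toward 129, under 1 shared library size. Relative to the median of all genes it was -0.09 under each of these scalings. That value cannot test the direction, since a scaling shifts all genes nearly alike. The call was also lost without the pairing (adjusted p = 0.505 in limma) and with no filter beyond 1 read (adjusted p = 0.0525).

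**Figure D1:**
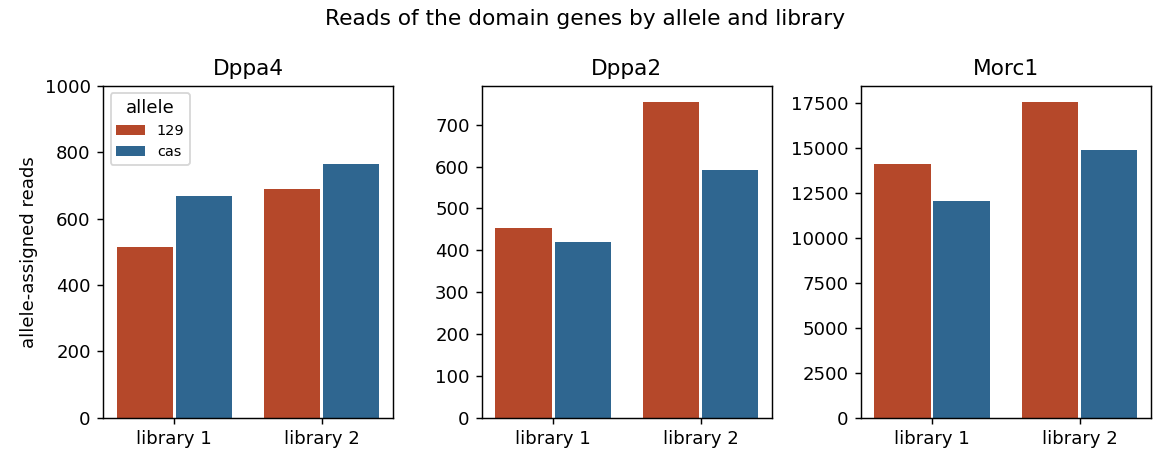
Allele-assigned reads (vertical axes, each starting at 0 with its own scale) of Dppa4, Dppa2 and Morc1 in libraries 1 and 2, 129 left and cas right in each pair. Dppa4 is lower from 129 in both libraries, while Dppa2 and Morc1 are higher from 129 in both.

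**Figure D2:**
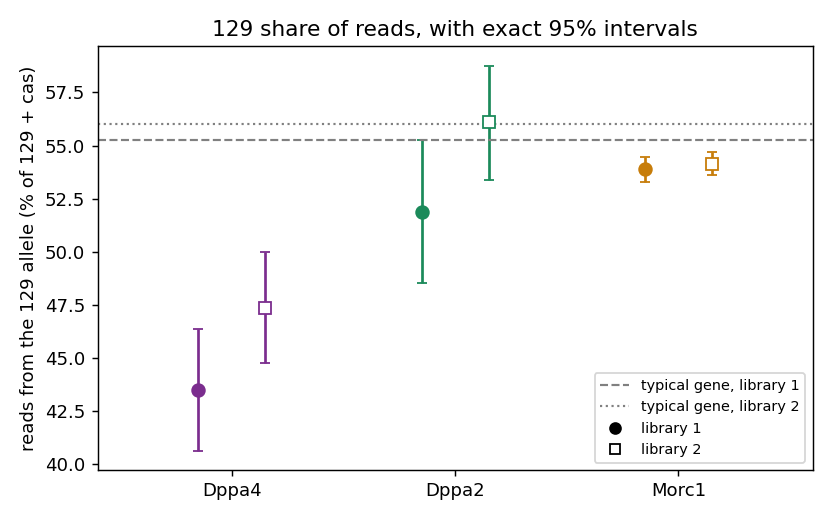
Share of each gene's reads that came from 129, in percent, with exact 95% intervals for counting error; filled circles are library 1 and open squares library 2. The grey lines mark the share at which the log2 ratio is 0 (55.28% and 56.01%). Dppa4 lies below both lines, the interval of Dppa2 ends just under its line in library 1 and crosses it in library 2, and Morc1 lies just under them with narrow intervals.

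Setting the genes against each other within a library removes the scaling of the columns. Dppa4 minus Dppa2 was -0.49 on the log2 ratio (-0.49 in library 1, -0.50 in library 2, SD 0.01, n = 2), with an SE from the fit of 0.18 and a 95% interval of -0.84 to -0.15. Dppa4 minus Morc1 was -0.50, from -0.60 and -0.39 in the libraries, with an interval of -0.74 to -0.25. In both pairs the direction was the same in each library, and neither interval reaches 0. Dppa2 minus Morc1 was -0.0006, with -0.11 in library 1, 0.11 in library 2 and an interval of -0.27 to 0.27. These were the 3 pairs among the members, compared as descriptions without a p. By ratio the order from cas toward 129 was therefore Dppa4, then Dppa2 and Morc1, which do not differ beyond their spread. Column scaling and the read minimum cannot change these differences, apart from the effect of the small pseudocount. With a pseudocount of 0.5 Dppa4 minus Dppa2 was -0.4903, and with a pseudocount of 1 it was -0.4851.

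Per kb of annotated transcript span, introns included, the 3 genes had like numbers of reads. No source used here says whether reads were counted over introns, so levels per kb of exon may differ. Per kb of the annotated transcript at the row's start, Dppa4 had 113.0 reads in library 1 and 138.0 in library 2, Dppa2 had 94.4 and 146.0, and Morc1 had 131.0 and 163.0. The order of Dppa4 and Dppa2 thus differed between the libraries, and Morc1 was highest in both. By allele and per kb, Dppa4 had 49.0 from 129 and 63.7 from cas in library 1, and 65.5 from 129 and 72.7 from cas in library 2. Dppa2 had 49.0 from 129 and 45.4 from cas in library 1, and 81.6 and 63.9 in library 2. Morc1 had 70.7 from 129 and 60.5 from cas in library 1, and 88.1 and 74.6 in library 2. On this scale 91.6%, 91.0% and 93.4% of 15286 tested genes with an annotated length lay below Dppa4, Dppa2 and Morc1. Genes with no annotated transcript at the row's start were given their full gene span in this ranking. If Dppa2 is given its full gene span of 15.8 kb, its level falls to 55.2 and 85.1 reads per kb. Its rank would then be lower and was not computed. Only reads that tell the alleles apart are in the table, so the level also moves with the number of sequence differences in a gene, which was not tested. Fewer expressing cells and less RNA per cell cannot be told apart in these bulk libraries.

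**Figure D3:**
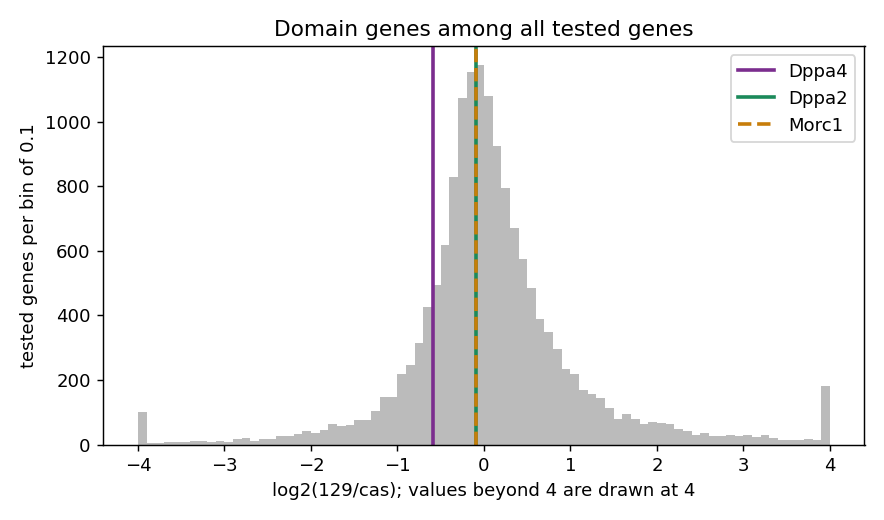
Number of tested genes (vertical axis, bins of 0.1) by log2(129/cas) (horizontal axis), with the ratios of Dppa4 (-0.59), Dppa2 (-0.10) and Morc1 (-0.09) as vertical lines. The lines of Dppa2 and Morc1 coincide near the centre of the distribution, and Dppa4 lies on its shoulder toward cas.

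Around the domain, reads were sparse on both sides. Of the 25 other rows within 2 Mb, 10 were at 0 in all columns, 7 had at most 25 reads over both libraries and 8 were tested. Of these 8, 5 were called (62.5%, against 43.7% of all tested genes), 2 higher from 129 and 3 higher from cas, with a median ratio of 0.02, against -0.0007 over all tested genes. Without the pairing of alleles by library, 2 of the 8 were called. Over the 480 tested genes of chromosome 16 the median was -0.12 and 42.9% were called.

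The nearest tested row before Dppa4 was Gm7204, a processed pseudogene at chr16:48218605-48219201, 65.1 kb from the Dppa4 start. It had 2 reads from 129 and 41 from cas in library 1, and 5 from 129 and 38 from cas in library 2. Its pooled 129 share was 8.14% (3.34 to 16.05), and its ratio was -3.38 (SE 0.77, adjusted p = 0.000142 in limma). Reads of a processed pseudogene can come from its source gene, so this ratio is uncertain. Farther out on that side, 1786.8 kb from Dppa4, Nectin3, a cell adhesion protein, was higher from cas with a 129 share of 46.84% ± 0.80 (SD, n = 2) and a ratio of -0.51 (SE 0.06), a size like that of Dppa4.

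Beyond Morc1 the rows of Trat1, a T cell adaptor, and of the resistin-like genes Retnla, Retnlb and Retnlg had between 0 and 22 reads over both libraries. The nearest tested rows were Dzip3, a RING-type ubiquitin ligase on the minus strand, and Cip2a (C330027C09Rik in the table), an inhibitor of protein phosphatase 2A on the plus strand, 562.9 kb from the Morc1 start. Their annotated starts face away from each other 20 bp apart. The plus-strand stretch between them, chr16:48994165-48994185 (RefSeq, GRCm38.p6), is shown because both genes begin in it; the capitals mark the first base of Dzip3 (on the left, read on the other strand) and of Cip2a.
Dzip3 and Cip2a starts: AagctgccaggcgcaagaggG

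Although their starts nearly touch, the ratios of the pair lay on opposite sides of the typical gene. Dzip3 had 866 reads from 129 and 932 from cas in library 1, and 1092 from 129 and 1013 from cas in library 2 (ratio -0.33, SE 0.10, adjusted p = 0.00512 in limma). Cip2a had 3162 from 129 and 2422 from cas in library 1, and 2881 from 129 and 1778 from cas in library 2 (0.21, SE 0.07, adjusted p = 0.00825 in limma). The Cip2a ratio was 0.08 without library 2 and 0.36 without library 1, and its call was lost without the pairing of alleles by library (adjusted p = 0.481). The difference between the genes was not tested. Dzip3 lost its call with column totals (-0.22) and had 0.0012 with 1 shared library size. Its call was also lost without the pairing (adjusted p = 0.109 in limma) and in the exact binomial test (adjusted p = 0.0536). Ift57, a protein of intraflagellar transport, was higher from 129 with a share of 63.58% ± 0.56 (SD, n = 2) and a ratio of 0.47 (SE 0.16), a call lost without the pairing. The rows of Myh15, a myosin heavy chain gene (1.15, SE 0.65), of Cd47, a cell surface signal against phagocytosis (-0.02, SE 0.23), and of the antisense RNA Gm15518 (0.07, SE 0.37) were not called. In reads per kb, Dppa4, Dppa2 and Morc1 lay above Dzip3 (25.7 and 30.1) and Ift57 (8.85 and 13.8). They also lay above Nectin3 (71.6 and 67.7), Gm7204 (72.0 in both) and Cd47 (3.07 and 2.84). For Cd47 the full gene span was used, as no annotated transcript starts at its row. On its own full gene span, Dppa2 (55.2 in library 1) lay below Nectin3 and Gm7204 in that library. Cip2a lay above Morc1 (219.0 and 183.0).

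**Figure D4:**
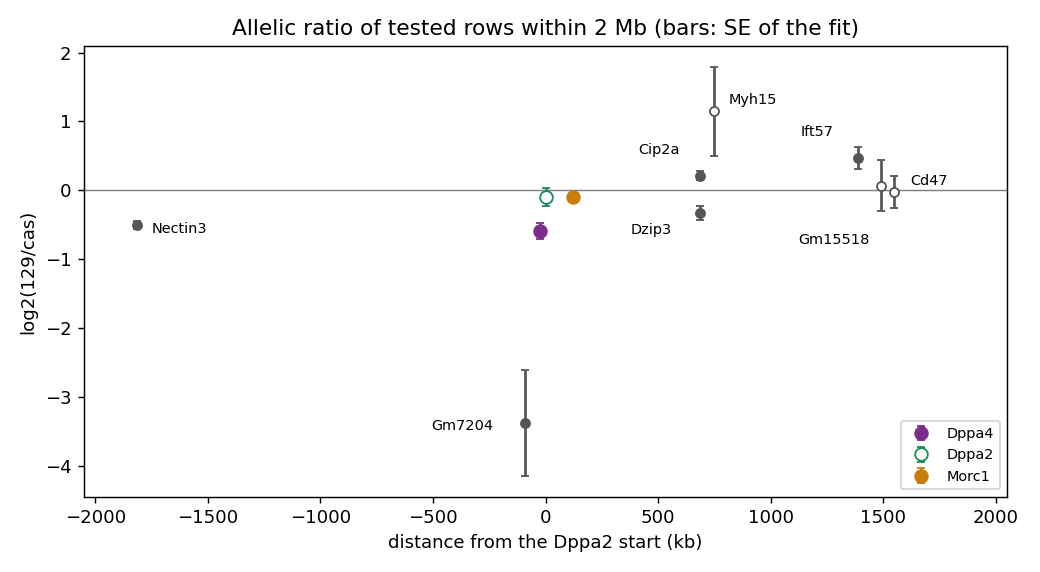
Log2(129/cas) of the 11 tested rows within 2 Mb (vertical axis, bars are the SE of the fit) by distance from the Dppa2 start in kb (horizontal axis); filled points were called. The tested rows before Dppa4 lie below 0, those beyond Morc1 lie above and below it, and Dppa4, Dppa2 and Morc1 lie between -0.59 and -0.09.

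Genes that Dppa2 and Dppa4 are known to activate were close to the limit of the data. Of 22 listed genes of the 2-cell-like state, 20 had rows, and 5 of these were at 0 in all columns. None of the rows was named Dux, and Duxf3 had 1 read. Of the 20 rows, 2 had enough reads to be tested and neither was called, with a median ratio of 0.34 over the 2. Usp17la, a deubiquitinating enzyme gene, had 13 reads from 129 and 10 from cas in library 1, and 45 and 20 in library 2 (ratio 0.42, SE 0.65). Zscan4d, a zinc finger gene that marks the 2-cell-like state, had 14 and 8 in library 1, and 19 and 14 in library 2 (0.26, SE 0.75). Usp17le and Zscan4a had 52 and 22 reads over both alleles and libraries. Copies of the Zscan4 and Usp17l genes are near-identical, so the reads of single copies are uncertain. Neither tested gene had a called difference between the alleles. Gm7204, with 86 reads, was called, but at a ratio of -3.38. What size of difference could be resolved at this depth was not tested.

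Other genes of the early embryo and of naive ES cells held more reads. Of 13 in the table, 8 were tested: 1 was higher from 129 and 6 from cas, with a median of -0.58 (87.5% called, against 43.7% of all tested genes). With 1 shared library size 2 were higher from 129 and 3 from cas. Zfp42, a zinc finger marker of naive cells, was higher from cas (-0.36, SE 0.04), as was Tdh, the threonine dehydrogenase of mouse ES cells (-0.43, SE 0.07). Both lost their calls with 1 shared library size (-0.03 and -0.11), and Zfp42 also without the pairing (adjusted p = 0.0552 in limma). Dppa5a, an RNA-binding protein that shares the Dppa name with Dppa2 and Dppa4 but not their family, was higher from 129 with 68.53% ± 0.47 of its reads (SD, n = 2; ratio 0.79, SE 0.10). Tdgf1, a co-receptor for Nodal, had 0.13 (SE 0.08) without a call, and was called toward 129 with column totals (0.23) and with 1 shared library size (0.45).

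Of the 4 other Morc genes, 3 were tested. Morc3, also on chromosome 16, was higher from cas (-0.35, SE 0.06, adjusted p = 2.53e-06 in limma), with 49.59% ± 1.61 of its reads from 129 (SD, n = 2), but lost its call with 1 shared library size. Morc2a, which acts with the HUSH complex on retroelements in human cells, had -0.16 (SE 0.07), and the X-linked Morc4 had 0.06 (SE 0.16); neither was called, but Morc4 was with 1 shared library size (0.39). Morc2b had 8 reads in all. The median of the 3 tested genes was -0.16, and it was 0.16 with 1 shared library size. By share of its reads from 129, Morc1 (54.01%) lay between Morc2a (52.85%) and Morc4 (56.69%).

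Genes of germline transposon silencing, the process in which Morc1 acts in mice, went both ways. Of 18 rows, 16 were tested: 5 higher from 129, 4 higher from cas and 7 not called, with a median of 0.28; the share called was 56.2%, against 43.7% of all tested genes. Without the pairing of alleles by library 3 were higher from 129 and 2 from cas. Tdrd12, a Tudor-domain protein of the piRNA pathway, was higher from 129 (1.00, SE 0.07), and Ddx4, the germ cell helicase Vasa, was higher from cas (-0.98, SE 0.22), from -0.53 in library 1 and -1.43 in library 2. Dnmt3l, a cofactor of de novo DNA methylation, had 0.29 (SE 0.13) and Tdrd7 0.35 (SE 0.15), both without a call. Both were called toward 129 with column totals (0.39 and 0.45), with 1 shared library size (0.61 and 0.68) and in the exact binomial test. The members' ratios, from -0.59 to -0.09, lie inside the range of this list.

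**Figure D5:**
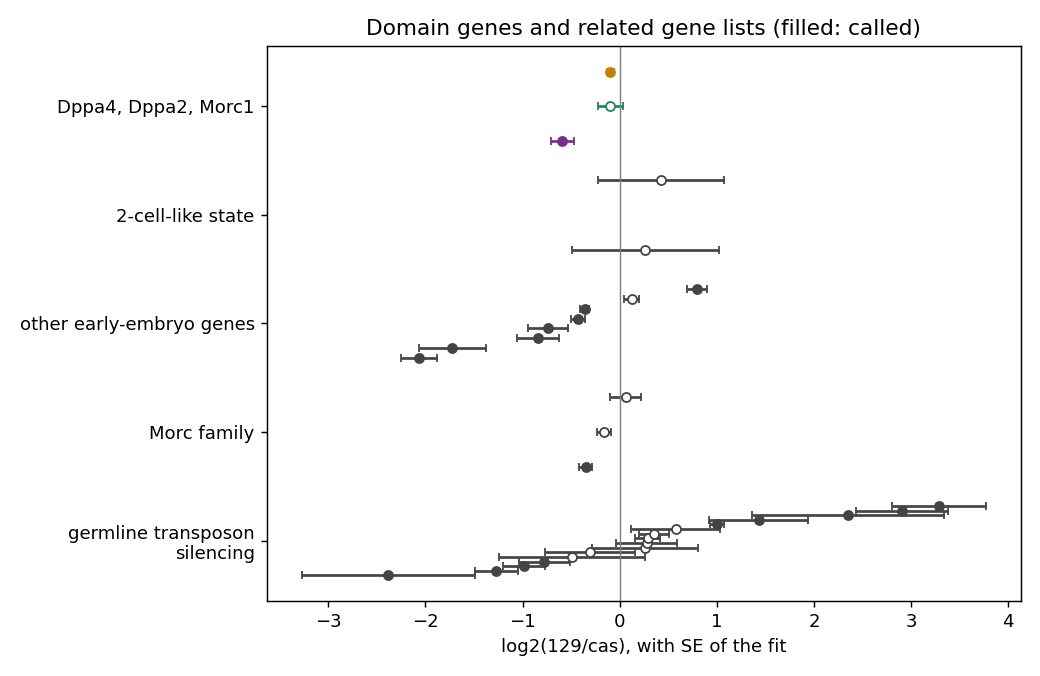
Log2(129/cas) with the SE of the fit (horizontal axis) for Dppa4, Dppa2 and Morc1 and for each tested gene of the 4 related lists (rows); filled points were called. The early-embryo list lies mostly below 0 (2 called toward 129 and 3 toward cas with 1 shared library size), the germline list spreads on both sides, and the domain genes lie between -0.59 and -0.09.

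The genes most alike in pattern were found by the distance between the ratios of library 1 and library 2, over these 2 libraries, among genes with 0.5 to 2 times the member's reads. For Dppa4 they were Cmtm6, Ilkap and Camsap3, at distances of 0.0033, 0.02 and 0.02. For Dppa2 they were Mylk, Txlna and Agtpbp1 (0.0057, 0.0066 and 0.0066), and for Morc1 they included Esrrb and Cdkal1 (0.03 each). None of those named lies within 2 Mb of the domain. The genes named were not alone: 51 of 3713 genes lay within 1 SE of Dppa4, 197 of 3814 within 1 SE of Dppa2 and 4 of 230 within 1 SE of Morc1. Each is a small share of the genes compared.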

How the data were processed

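Total nuclear RNA was sequenced, strand-specific and paired-end at 100 bp, and earlier libraries were sequenced again and merged, per the labels' protocols. Reads were aligned with Bowtie2 to mm10, per the submitters' processing notes; no source used here gives the counting program, SNP set, annotation or use of strand. The authors deposited RPKM values under column names that read counts: value times length in kb summed to 999966.7 to 999996.2 per column, and 100.0% of products were whole multiples of 1 step (tolerance 0.01 read), which gave the reads. The deposited lengths matched the annotated gene span within 2 bp in 67 of 46821 rows matched to GENCODE M21, so RPKM of different genes were not compared; the allele ratio of a row is unaffected.

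Library 1 held 15300476 and 13223268 reads from 129 and cas, library 2 held 17006241 and 14396524. Rows of the Y chromosome (1570) were left out, and 20 allele reads in each library were required. Limma 3.58.1 in R 4.3.3 was fitted to log2(CPM + 0.1) after TMM scaling, with trended variances and with terms for the library (block) and the allele (tested). The 0.1 shrinks the fold changes of genes with few reads. The block pairs the allele columns of 1 library, which come from the same RNA. SEs and p-values rest on a spread shared across genes of like abundance. The code was tested on simulated data. Exact intervals came from scipy 1.17.1. PCR copies without molecular identifiers are not independent molecules.

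The members and gene lists were chosen with earlier results of these data known. Named rows were the members, the nearest tested row on each side, called rows within 2 Mb, the 4 genes of highest count per list, and per member the 3 genes of most alike ratios without predicted-gene symbols (1 of them is not reported here); the uncalled or untested rows near the domain were named after their values were seen. The RefSeq promoter table held 0 of the 3 members. Alternatives covered scaling, pseudocount, read minimum, pairing, test, each library and the distance that counts as near.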

Additional observations from a re-analysis of the deposited data

How the results depend on the processing

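Dppa4 stayed below 0 under each alternative tried and kept its call except with 1 shared library size (-0.26). Dppa2 was called under none, with 0.23 for 1 shared library size, 0.0054 for column totals and 0.0052 in the exact binomial test against each library's overall share. Morc1 had 0.23, 0.0063 and 0.0063 under the same settings, and its ratio of -0.0949 was not called without a filter beyond 1 read (adjusted p = 0.0525) or with no replicate block (adjusted p = 0.505). Other changes of sign under a setting of the fit were Dzip3 (0.0012), Morc2a (0.16), Cd47 (0.30) and Esrrb (0.25) with 1 shared library size, and Cd47 (0.0763 and 0.0762) and Esrrb (0.0211 in both) with column totals and in the binomial test. With no replicate block 3907 genes were called, 2 of them among the rows within 2 Mb. Within 1 Mb, 3 rows were called (Gm7204, Dzip3 and Cip2a). Among the tested rows there only Myh15 was not called, against 43.7% of all tested genes called. The median within 2 Mb was 0.34 with 1 shared library size, which shifts all genes; it was -0.02 with no filter, -0.06 within 1 Mb and -0.07 without library 2. With 1 library left out no spread remains, so counts of calls have no value there; Dppa4 then had -0.49 and -0.68, Dppa2 0.02 and -0.20, Morc1 -0.10 and -0.08. Without 1 library, the sign also changed in Cd47 (0.14), Morc4 (-0.03) and Tfcp2l1 (-0.04), none of them called. The cause of the other changes was not tested. Dppa2, with 873 reads in its shallower library, had an interval of -0.35 to 0.16, which holds only under TMM scaling and the shared spread. Its ratio of 0.23 with 1 shared library size lies outside that interval.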

Other observations

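The deposited RPKM give a different picture of the levels within the domain than the reads do. Morc1 exceeded Dppa2 by 2620-fold in the 129 column of library 1 and by 2420-fold in the cas column, and by 1960-fold and 2120-fold in library 2. In recovered reads the same ratios were 31.1 and 28.8 in library 1, and 23.3 and 25.2 in library 2. Per kb of the annotated transcript span, introns included, they were 1.44 and 1.33 in library 1, and 1.08 and 1.17 in library 2. The table gives Morc1 a length of 120 bp, against an annotated 199664 bp, Dppa4 139 bp against 10505 bp, and Dppa2 10102 bp.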
